A study of Mus musculus with 12 samples.

Results

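The transcription factors examined here are 9 genes of the enteroendocrine lineage, *Neurog3*, *Insm1*, *Neurod1*, *Nkx2-2*, *Rfx6*, *Pax4*, *Pax6*, *Isl1* and *Fev*. They were chosen as a list by name, with earlier results of these data known, and all 9 were found among the 54232 genes of the count table. Intestinal stem cells (ISCs) of the small intestine were taken from mice aged 2 months (young) or 22 months (old), and a 3′ RNA sequencing library was made from each mouse. Wild-type C57/Bl6 mice formed the SM6 groups, named after a sort on 6 surface markers. Mice labelled as the Lgr5-EGFP-IRES-CreERT strain, which the paper's methods name Lgr5-EGFP-IRES-CreERT2, formed the Lgr5-GFP groups. In this strain a fluorescent protein is made from *Lgr5*, an ISC receptor gene. Each of the 4 groups (SM6 young, SM6 old, Lgr5-GFP young, Lgr5-GFP old) held 3 libraries of 3 female mice. Strain and isolation changed together and cannot be told apart, and the protocol in the labels describes the surface marker sort for every library whereas a supplementary legend gives a sort by fluorescence for the reporter strain. The reporter allele was carried by young and old Lgr5-GFP mice alike and by none of the SM6 mice. The question was whether the factors follow the hormone genes of the same lineage across these groups.

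Enteroendocrine cells are the hormone-secreting cells of the gut epithelium and arise from ISCs through progenitors of the secretory lineage. *Neurog3* is switched on briefly in the progenitor and is required for the lineage, and it is followed by *Insm1*, *Neurod1*, *Nkx2-2* and *Rfx6*, then by factors that set which hormone a cell makes, such as *Pax4*, *Pax6* and *Isl1*, while *Fev* is a factor of serotonergic neurons and of enteroendocrine progenitors. Neurog3 and Neurod1 are basic helix-loop-helix proteins and bind E-boxes in DNA. Mature cells store peptide hormones together with granins (Chga, Chgb), which are far more abundant as RNA than the factors.

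Promoters are shown because the factors act on each other's genes, and because 2 of them belong to the E-box-binding class. The E-box searched was CAGNTG, with CANCTG on the other strand, in the 250 bases before the RefSeq transcription start (GRCm38.p6). It lay in 3 of the 8 promoters given for 7 of the factors, against 44.8% of all 32851 promoters of that length, so the factors did not hold it more often. *Neurog3*, *Isl1* and *Nkx2-2* held 1 E-box each, printed below in capitals, and *Fev*, *Neurod1*, *Rfx6* and both promoters of *Pax6* held 0. Bases that lay in an annotated exon were left off the 3′ end. *Insm1* and *Pax4* were not matched. The stretches are chr10:62132840-62133089 on the plus strand for *Neurog3*, chr13:116309690-116309938 on the minus strand for *Isl1*, and chr2:147186456-147186652 on the minus strand for *Nkx2-2*, where the E-boxes begin at -165, -103 and -220 from the RefSeq start. The last of these stretches lies within an intron of a longer *Nkx2-2* transcript.
Neurog3: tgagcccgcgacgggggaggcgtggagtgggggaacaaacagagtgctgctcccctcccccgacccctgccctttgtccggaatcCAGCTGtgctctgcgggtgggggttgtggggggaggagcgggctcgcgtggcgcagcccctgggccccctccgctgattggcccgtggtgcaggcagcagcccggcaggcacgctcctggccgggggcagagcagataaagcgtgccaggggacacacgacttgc
Isl1: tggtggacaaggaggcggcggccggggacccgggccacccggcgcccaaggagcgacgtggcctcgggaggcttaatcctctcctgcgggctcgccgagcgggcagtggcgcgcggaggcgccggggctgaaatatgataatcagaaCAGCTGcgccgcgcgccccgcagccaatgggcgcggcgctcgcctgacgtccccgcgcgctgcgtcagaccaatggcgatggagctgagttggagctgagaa
Nkx2-2: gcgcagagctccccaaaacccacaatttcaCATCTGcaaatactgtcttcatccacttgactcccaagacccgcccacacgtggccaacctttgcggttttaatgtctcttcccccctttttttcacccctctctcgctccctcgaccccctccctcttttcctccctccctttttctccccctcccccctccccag

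Library totals ran from 970472 to 3815425 counts, and 13368 genes passed the filter on low counts (more than 5 reads and at least 1 CPM, the count scaled to a common library total, in at least 1 library). Markers of the sorted cell type were present in every library, with 9097 to 38772 counts summed over the 6 ISC markers, which include *Lgr5*, *Ascl2* and *Olfm4*. RNA of Paneth cells, the defensin-secreting neighbours of ISCs, varied. Defensin genes took 1.26 to 23.2% of a library, with the highest shares in Lgr5-GFP young 1 (23.2%) and SM6 old 3 (23.1%). The 6 enteric neuron and glia markers summed to 0 to 22 counts and the 6 stroma and endothelium markers to 0 to 9 counts, with *Col3a1* and *Pdgfra* at 0 throughout. Markers of tuft cells, another secretory type, summed to 1 to 127 counts, and were highest in Lgr5-GFP young 1 (127 counts) and SM6 old 3 (22 counts), the same 2 libraries. In these bulk libraries, fewer cells of a type and less RNA per cell cannot be told apart.

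The factors lay near the detection limit. All 9 together gave 274 counts over the 12 libraries, whereas *Gip* alone, which encodes an incretin hormone, gave 7763. *Neurod1* was the most counted factor with 79 counts, followed by *Fev* (51), *Pax6* (39), *Isl1* (30) and *Insm1* (25). *Nkx2-2* and *Rfx6* gave 17 counts each, *Pax4* 9 and *Neurog3* 7. Per kilobase of merged exon, the mean level was highest for *Fev* at 1.71 CPM per kb and *Neurod1* at 1.35 CPM per kb, and it was between 0.16 (*Pax6*) and 0.448 (*Isl1*) CPM per kb for the other 7. On the same scale *Gip* stood at 670.0, *Sct* at 122.0 and *Chgb* at 53.1 CPM per kb. A 3′ library reads mainly the ends of transcripts, so that division by length can understate long genes such as *Pax6*, whose merged exons span 11694 bases. The libraries of *Fev* (0 to 10.4 CPM) and *Neurod1* (0 to 11.5 CPM) overlapped almost throughout, so their order was within the spread. Of the 9 factors, 8 passed the filter and *Rfx6*, with at most 5 counts, did not. *Neurog3*, *Pax4*, *Pax6* and *Nkx2-2* passed through 1 library each, so that a test of them leaned on that library. A count of 0 allows up to 3 counts, which was 0.945 CPM in the deepest library and 2.89 CPM in the shallowest.

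**Figure D1:**
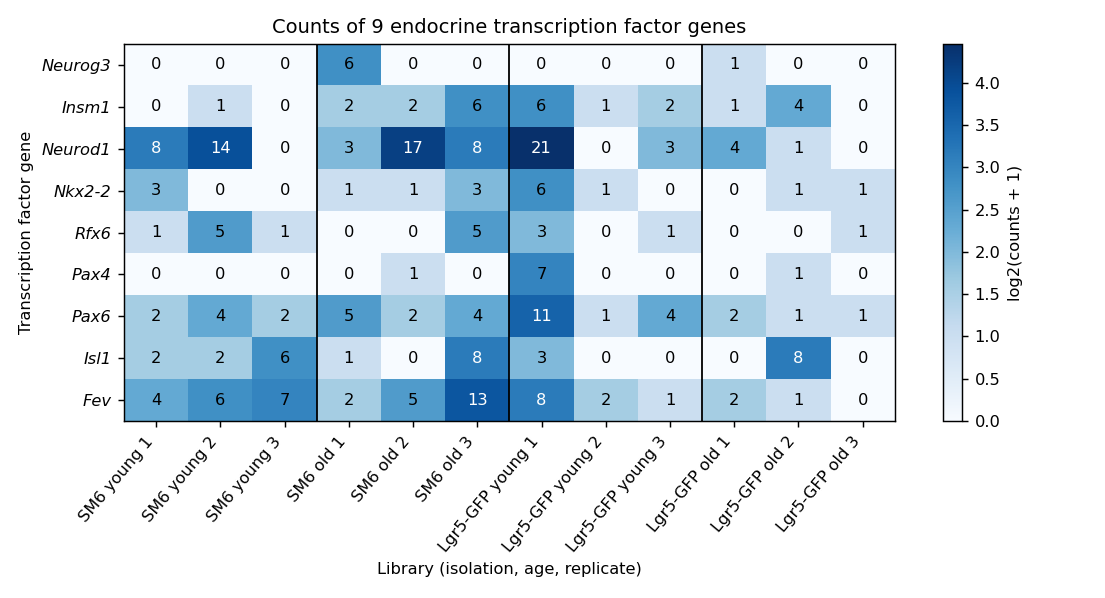
Counts of the 9 factors (rows) in each of the 12 libraries (columns), with the number printed in each cell, colour on a log2(counts + 1) scale and lines between the groups. The highest cells are *Neurod1* in Lgr5-GFP young 1 (21 counts), SM6 old 2 (17) and SM6 young 2 (14), and *Neurog3* has counts in 2 libraries.

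*Neurog3*, the factor that starts the lineage (chromosome 10, 62133090 to 62134763), was counted in 2 libraries. It had 6 counts in SM6 old 1 and 1 count in Lgr5-GFP old 1, and 0 in each of the other 10 libraries, all young libraries included. SM6 young was at 0 in all 3 libraries. *Neurog3* passed the filter through SM6 old 1 alone, the library that makes the difference, so no fold change was read from it. The exon sequence of *Neurog3* overlaps an exon of *Fam241b* on the opposite strand by 273 bases, and *Fam241b* had 684 counts. The strand setting of the counting is not given in the sources used here, so reads of the shared stretch cannot be told apart and the *Neurog3* counts are uncertain.

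Of the factors downstream of Neurog3, *Insm1*, a zinc finger repressor, differed most between young and old in SM6. *Insm1* had 0, 1 and 0 counts in SM6 young and 2, 2 and 6 in SM6 old. Every SM6 old library was above every SM6 young library, although a count of 0 allows up to 3 counts. Lgr5-GFP young (6, 1 and 2 counts) and Lgr5-GFP old (1, 4 and 0 counts) overlapped. The log2 fold change in SM6 was 3.21 (SE 1.36, adjusted p = 0.289, edgeR), and the pooled counts of 10 against 1 gave a ratio of 12.1 with a 95% counting interval of 1.72 to 524.0. The log2 fold change was 2.46 without SM6 old 3 and 5.05 without SM6 young 2, the library of the lone young count, and the unadjusted p was above 0.05 without SM6 young 1, SM6 young 3 or SM6 old 3. In Lgr5-GFP the log2 fold change with age was 0.04 (SE 1.18). The difference between the age effects, -3.18 (SE 1.77), had an adjusted p of 0.59.

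*Neurod1*, a bHLH factor that drives cell cycle exit and hormone gene transcription, swung between replicates of the same group. It had 8, 14 and 0 counts in SM6 young, 3, 17 and 8 in SM6 old, 21, 0 and 3 in Lgr5-GFP young, and 4, 1 and 0 in Lgr5-GFP old. The groups overlapped in every comparison, and the 0 in SM6 young 3 stood beside 7 counts of *Fev* in the same library. In Lgr5-GFP the log2 fold change with age was -1.23 (SE 1.10, adjusted p = 0.79), and it became 0.61 without Lgr5-GFP young 1, which held 21 of the 24 young counts. At 22 months *Neurod1* was at -2.34 in Lgr5-GFP relative to SM6 (SE 1.07, unadjusted p = 0.0387, adjusted p = 0.495), with pooled counts of 5 against 28 and a ratio of 0.19 (counting interval 0.0573 to 0.498). The log2 fold change was -1.70 without SM6 old 2 and -3.75 without Lgr5-GFP old 1. *Neurod1* shares 201 exon bases with *Cerkl* on the same strand, which had 16 counts.

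*Nkx2-2*, a homeobox factor, had 3, 0 and 0 counts in SM6 young, 1, 1 and 3 in SM6 old, 6, 1 and 0 in Lgr5-GFP young, and 0, 1 and 1 in Lgr5-GFP old. *Rfx6*, a winged-helix factor of the gut and pancreas, had 1, 5 and 1 counts in SM6 young, 0, 0 and 5 in SM6 old, 3, 0 and 1 in Lgr5-GFP young, and 0, 0 and 1 in Lgr5-GFP old. For both genes the groups overlapped in all 4 comparisons, and every counting interval of a ratio between groups included 1. Age differences of these 2 factors were not detectable at this depth.

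Among the factors tied to hormone choice, *Pax6*, a paired-box factor that acts on the glucagon gene, was the sole factor with a count in all 12 libraries. It had 2, 4 and 2 counts in SM6 young, 5, 2 and 4 in SM6 old, 11, 1 and 4 in Lgr5-GFP young, and 2, 1 and 1 in Lgr5-GFP old. In CPM the SM6 groups overlapped, and at 22 months the 3 Lgr5-GFP libraries (0.813 to 1.33 CPM) lay just under the 3 SM6 libraries (1.36 to 3.9 CPM). The nearest of them, Lgr5-GFP old 1 and SM6 old 2, had 2 counts each, so their order came from the scaling. The log2 fold changes with age were 0.73 (SE 0.86) in SM6 and -1.01 (SE 0.93) in Lgr5-GFP, and the one between isolations at 22 months was -1.34 (SE 0.96, adjusted p = 0.722). None of these 3 differences passed the test.

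*Pax4*, a paired-box repressor, had 7 counts in Lgr5-GFP young 1 and 1 count each in SM6 old 2 and Lgr5-GFP old 2, so that 77.8% of its counts came from the deepest library. *Isl1*, a LIM homeobox factor, had 2, 2 and 6 counts in SM6 young, 1, 0 and 8 in SM6 old, 3, 0 and 0 in Lgr5-GFP young, and 0, 8 and 0 in Lgr5-GFP old. Its highest libraries were SM6 old 3 and Lgr5-GFP old 2, in groups whose other libraries had 0 or 1. The log2 fold change of *Isl1* between isolations at 2 months was -2.16 (SE 1.43, adjusted p = 0.765). In CPM every SM6 young library (1.11 to 4.34) lay above every Lgr5-GFP young library (0 to 0.945). In counts, Lgr5-GFP young 1 had 3 against 2 each in SM6 young 1 and SM6 young 2, so this order came from the scaling.

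*Fev*, an ETS factor, had fewer pooled counts in Lgr5-GFP than in SM6 at 22 months but did not pass the test. It had 4, 6 and 7 counts in SM6 young, 2, 5 and 13 in SM6 old, 8, 2 and 1 in Lgr5-GFP young, and 2, 1 and 0 in Lgr5-GFP old. At 22 months every SM6 library (1.56 to 10.4 CPM) was above every Lgr5-GFP library (0 to 1.33 CPM), and in the other 3 comparisons the groups overlapped. SM6 old 1 and Lgr5-GFP old 1 had 2 counts each, so their order came from the scaling. The 0 in Lgr5-GFP old 3 allows up to 2.89 CPM, which is above SM6 old 1. The log2 fold change between isolations at 22 months was -2.58 (SE 1.01, unadjusted p = 0.0176, adjusted p = 0.399), from pooled counts of 3 against 20 and a ratio of 0.16 (counting interval 0.0304 to 0.538). The log2 fold change was -1.58 without SM6 old 3 and -3.32 without Lgr5-GFP old 1. At 2 months the log2 fold change was -1.11 (SE 0.85, adjusted p = 0.808). With age it was 0.50 in SM6 (SE 0.79) and -0.98 in Lgr5-GFP (SE 1.09), and the value in SM6 became -0.49 without SM6 old 3, which held 13 of the 20 old counts.

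Taking the factors as a group, 0 of the 8 tested passed an adjusted p of 0.05 in any of the 6 comparisons. The shares of all 13368 genes that passed were 2.42% with age in SM6, 0.471% with age in Lgr5-GFP, 2.66% with age on average, 0.658% for the difference of the age effects, 0.0898% between isolations at 2 months and 0.718% at 22 months, so that a count of 0 among 8 genes was near the background in each. At an unadjusted p under 0.05 there were 1 factor with age in SM6 (*Insm1*), 2 between isolations at 22 months (*Fev*, *Neurod1*) and 0 in the other 4 comparisons, while 13.1% of all genes reached that p with age in SM6 and 9.4% at 22 months. At 22 months neither factor reached it without SM6 old 3, without Lgr5-GFP old 3 or with voom, and *Fev* alone did without SM6 old 2 or Lgr5-GFP old 2. Voom and a likelihood ratio test likewise called 0. DESeq2 called 0 of the 5 factors to which it gave an adjusted p with age on average, of 8 at 2 months and of 1 at 22 months, and it gave none for any factor in the other 3 comparisons. Libraries did not overlap for 1 tested factor with age in SM6 (*Insm1*, background 17.5% of genes), 0 with age in Lgr5-GFP (14.6%), 2 between isolations at 2 months (*Insm1*, *Isl1*, background 13.7%) and 2 at 22 months (*Fev*, *Pax6*, background 13.5%). For each of these factors the nearest libraries held no more than 3 counts, so their order lay within the floor.

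Fold changes of the factors are given beside those of the hormone genes as a description. *Neurog3*, *Pax4*, *Pax6* and *Nkx2-2* each passed the filter through 1 library in which they were high, so no direction was read from a count or median over the factors. Of the 4 that passed through 2 or more libraries, the log2 fold changes with age in SM6 were 0.64 for *Neurod1*, 0.50 for *Fev*, 0.11 for *Isl1* and 3.21 for *Insm1*. *Pax6*, whose filter library, Lgr5-GFP young 1, entered neither this comparison nor that at 22 months, was at 0.73 here and at -1.34 there. The 10 tested hormone genes had a median of 1.02, with 9 above 0, beside a median of -0.007 over all genes. In Lgr5-GFP the same factors were at -1.23, -0.98, 2.17 and 0.04, and the 9 hormone genes with a fold change had a median of -0.96 beside -0.034 over all genes. In the medians of hormone genes, those at 0 in all libraries of a group were set at their bound. None of these differences of the factors passed the test.

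Between isolations at 2 months, the log2 fold changes in Lgr5-GFP relative to SM6 were -0.47 for *Neurod1*, -1.11 for *Fev*, -2.16 for *Isl1* and 2.28 for *Insm1*, and the median over the 10 hormone genes was -1.64. At 22 months the same factors were at -2.34, -2.58, -0.10 and -0.90, and the 10 hormone genes had a median of -3.45 with 2 of them at their bound, or -3.99 as fitted. Each group of libraries entered 2 of these 4 comparisons, so the comparisons share samples. The sign of *Isl1* turned on single libraries in 3 of the 4 comparisons, that of *Neurod1* in 3, that of *Insm1* in 1 and that of *Fev* in 1.

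**Figure D2:**
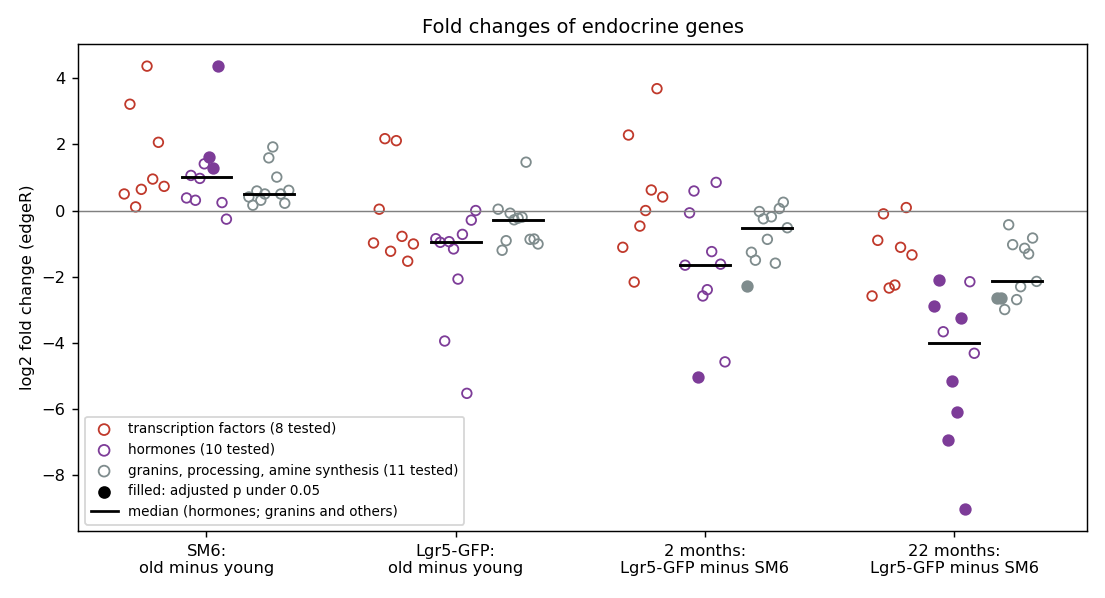
Log2 fold changes (y axis) of the 8 tested factors, 10 hormone genes and 11 granin, processing and amine synthesis genes in 4 comparisons (x axis), with 1 point per gene as fitted by edgeR, filled where the adjusted p was under 0.05, and a bar at the median of the fitted values of the hormone genes and of the granin and other genes. All factor points are open, and 7 hormone points are filled at 22 months.

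Some hormone genes, which had far more counts, passed the test. With age in SM6, 3 of the 10 tested hormone genes were called, all higher. *Sct* (secretin) rose from 57.6, 95.9 and 76.6 CPM to 136.0, 173.0 and 252.0 CPM, a log2 fold change of 1.28 (SE 0.28, adjusted p = 0.0106), and *Pyy* (peptide YY) rose by 1.63 (SE 0.40, adjusted p = 0.0241). *Sst* (somatostatin) rose by 4.35 (SE 0.97, adjusted p = 0.0154) although its libraries overlapped, with 2, 0 and 7 counts against 2, 35 and 121. The call of *Sct* was lost without SM6 young 1 or SM6 old 3 (adjusted p = 0.0648 and 0.052). That of *Pyy* was lost without SM6 young 1, SM6 young 3, SM6 old 2 or SM6 old 3 (adjusted p = 0.0579 to 0.137), and that of *Sst* without SM6 young 1, SM6 young 2 or SM6 old 3 (adjusted p = 0.0638 to 0.205), with a log2 fold change of 3.71 without SM6 young 2 and 2.69 without SM6 old 3, against 5.94 without SM6 young 3 and 4.94 without SM6 old 1. Markers of other cell types moved in the same comparison. By edgeR 4 of 6 goblet and 3 of 6 enterocyte markers were called higher and 2 of 6 ISC markers were called lower. All 6 Paneth markers were higher with an unadjusted p under 0.05 and 0 called by edgeR, while the likelihood ratio test called 2. Their part in the hormone differences was not tested. In Lgr5-GFP edgeR called 0 of the 10 with age, with 3 at an unadjusted p under 0.05, voom and the likelihood ratio test also called 0, and DESeq2 called 0 of the 8 to which it gave an adjusted p. In that comparison edgeR called 2 of 6 Paneth and 2 of 6 enterocyte markers lower, and all 6 Paneth markers were below 0 (median -2.71) with libraries that did not overlap. All 6 enterocyte markers had an unadjusted p under 0.05, and 1 of them was higher (log2 fold change 2.59) and not called. Their part was not tested. The age effect on *Sct* differed between isolations by -2.0 (SE 0.44, adjusted p = 0.0298), and 6 of the 12 single-library omissions ended that call.

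Between isolations at 22 months, 7 of the 10 tested hormone genes were called lower in Lgr5-GFP, and the fold changes of the other 3 were also below 0. *Gip* fell from 651.0, 698.0 and 2260.0 CPM in SM6 old to 10.7, 10.6 and 7.72 CPM in Lgr5-GFP old (log2 fold change -6.93, SE 0.67, adjusted p = 2.47e-06). *Sct* changed by -3.24, *Pyy* by -6.08, *Nts* (neurotensin) by -5.15, *Cck* (cholecystokinin) by -2.88 and *Gcg* (proglucagon) by -2.09. *Sst* was at 0 in all 3 Lgr5-GFP old libraries, and SM6 old was at least 49.5-fold higher when that group was set at 3 counts, or at least 16.9-fold without SM6 old 3, which held 121 of its 158 counts. Single libraries also moved the size of other differences, to -6.08 for *Gip* without SM6 old 3, to -5.40 and -7.36 for *Pyy* without Lgr5-GFP old 1 and Lgr5-GFP old 2, and to -6.15 for *Nts* and -3.55 for *Cck* without Lgr5-GFP old 3. Calls of *Cck*, *Gcg* and *Sst* depended on single libraries. *Cck* was not called without SM6 old 2, SM6 old 3, Lgr5-GFP old 1 or Lgr5-GFP old 2 (adjusted p up to 0.147), *Gcg* without either of SM6 old 2 and SM6 old 3 or any Lgr5-GFP old library (up to 0.295), and *Sst* without SM6 old 3, Lgr5-GFP old 1 or Lgr5-GFP old 3 (up to 0.0649). In the same comparison edgeR called 5 of 6 goblet, 4 of 6 enterocyte and 1 of 6 Paneth markers lower. All 6 Paneth markers were below 0, and 1 enterocyte marker was above 0 (0.51). Their part in the hormone differences was not tested.

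At 2 months *Gip* was the one hormone gene called by edgeR, at -5.02 (SE 0.59, adjusted p = 0.000134), with 263.0, 671.0 and 903.0 CPM in SM6 young and 39.7, 6.62 and 3.73 CPM in Lgr5-GFP young, and it was at -7.00 without Lgr5-GFP young 1. The likelihood ratio test called 3 of the 10 hormone genes in this comparison. In this comparison 0 markers of Paneth cells, goblet cells or enterocytes were called, while 6 of 6 Paneth markers (all above 0, median 2.16) and 4 of 6 enterocyte markers had an unadjusted p under 0.05. Their part in the hormone difference was not tested. Of the 11 tested genes for granins, prohormone processing and amine synthesis, *Chga* (chromogranin A) was called at 2 months (-2.27, SE 0.32, adjusted p = 0.00121), and *Chga* and *Chgb* (chromogranin B) at 22 months, both at -2.63 (SE 0.34 and 0.42), with *Chgb* at -3.82 without Lgr5-GFP old 2. *Ddc*, which makes the amines and was also among the 6 most abundant genes of this list, was at a mean of 41.6 to 56.7 CPM in the 4 groups and was not called. With age, edgeR called 0 of the 11 in either isolation, with 1 at an unadjusted p under 0.05 in each, voom and the likelihood ratio test also called 0, and DESeq2 called 0 of the 6 to which it gave an adjusted p in each.

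**Figure D3:**
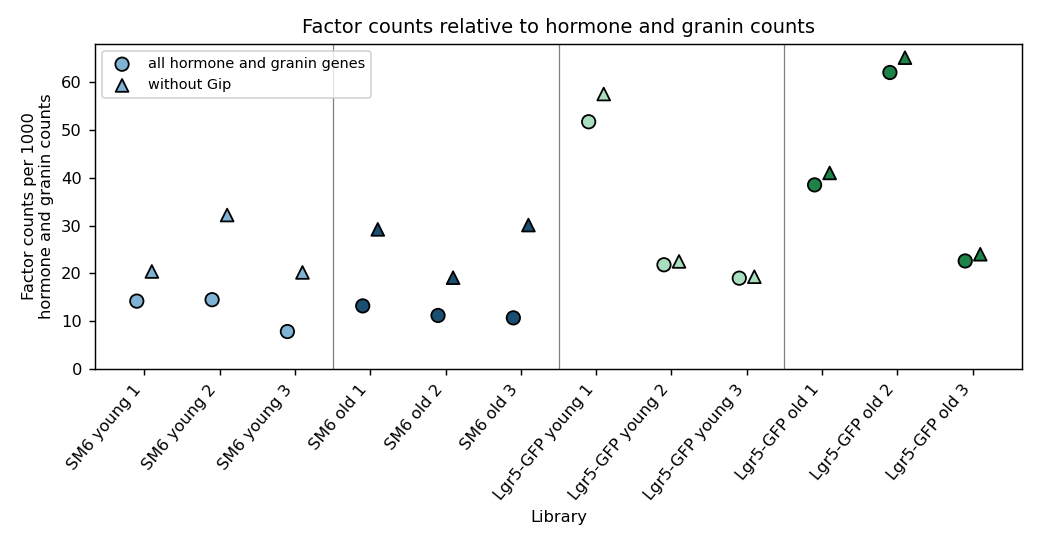
Counts of the 9 factors per 1000 counts of hormone and granin genes (y axis) in each library (x axis), with all those genes (circles) and without *Gip* (triangles). The 6 SM6 circles lie between 7.84 and 14.5 and the 6 Lgr5-GFP circles between 19.0 and 62.0, while the triangles of the isolations overlap.

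The ratio of factor to hormone RNA separated the isolations with *Gip* and not without it. Per 1000 hormone and granin counts there were 14.2, 14.5 and 7.84 factor counts in SM6 young and 13.2, 11.2 and 10.7 in SM6 old. There were 51.7, 21.8 and 19.0 in Lgr5-GFP young and 38.5, 62.0 and 22.6 in Lgr5-GFP old. Every Lgr5-GFP library was above every SM6 library. Without *Gip* the SM6 libraries ran from 19.1 to 32.2 and the Lgr5-GFP libraries from 19.3 to 65.1, and 3 of the 6 Lgr5-GFP libraries lay within the SM6 range. In Lgr5-GFP old 3 the ratio rested on 3 factor counts and 133 hormone and granin counts.

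Across libraries the summed factors rose with the summed hormone and granin genes. The sum of the 9 factors was 12.1, 17.7 and 11.6 CPM in SM6 young, 15.6, 19.0 and 37.5 in SM6 old, 20.5, 4.73 and 4.55 in Lgr5-GFP young, and 6.66, 13.8 and 2.89 in Lgr5-GFP old. Hormone and granin genes summed to 856.0, 1220.0 and 1480.0 CPM in SM6 young, 1180.0, 1690.0 and 3510.0 in SM6 old, 396.0, 216.0 and 240.0 in Lgr5-GFP young, and 173.0, 223.0 and 128.0 in Lgr5-GFP old. SM6 old 3 was highest and Lgr5-GFP old 3 lowest on both sums. On log2(CPM + 1), Pearson's r of the sums was 0.88 and Spearman's rho 0.66 within the 6 SM6 libraries, and 0.79 and 0.60 within the 6 Lgr5-GFP libraries. Over all 12 libraries, where the hormone sums of the isolations did not overlap, r was 0.81 and rho 0.74, and r was 0.66 without SM6 old 3 and Lgr5-GFP old 3, the libraries farthest from the median hormone sum. These values are a description, since the sum is dominated by *Neurod1*, *Fev* and *Pax6* and both sums of a library share its depth.

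**Figure D4:**
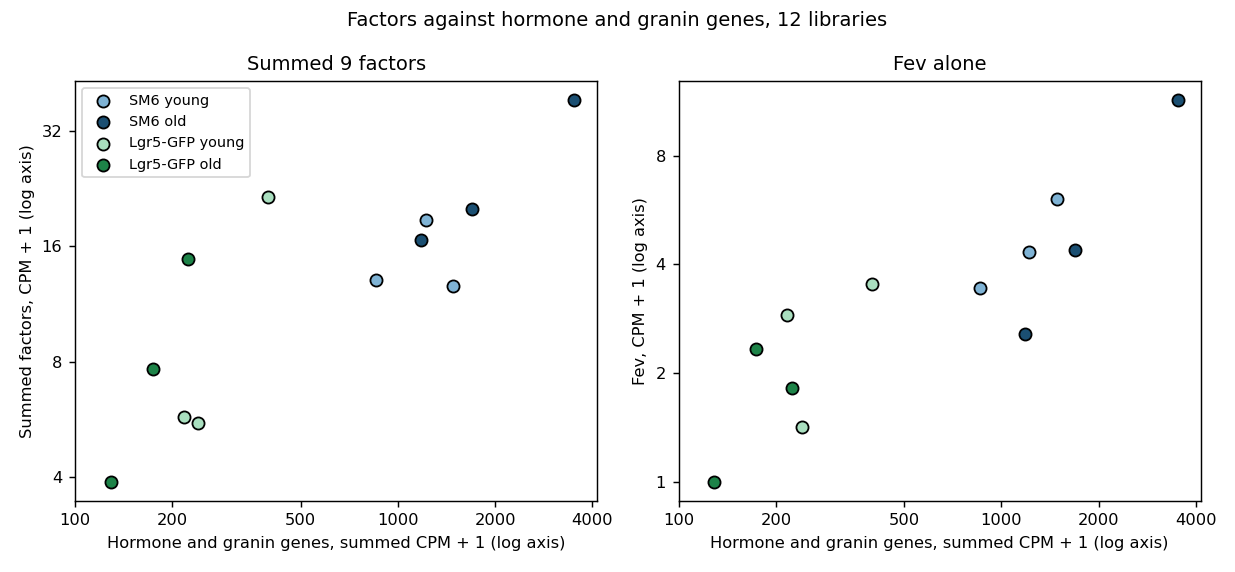
Summed factors (left) and *Fev* alone (right) on the y axis against summed hormone and granin genes on the x axis, in CPM + 1 on log axes, with 1 point per library coloured by group. SM6 old 3 lies at the upper right and Lgr5-GFP old 3 at the lower left of both plots, and within the other libraries the factor sum of SM6 and Lgr5-GFP overlaps.

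Taken singly, *Fev* had the highest r with the hormone and granin sum over the 12 libraries. Its r was 0.86 over 12 libraries (permutation p = 0.00013) and its rho 0.87 (permutation p = 0.00034). Within SM6 its r was 0.87 (exact permutation p = 0.0347) and rho 0.89 (p = 0.0333), and within Lgr5-GFP r was 0.72 (exact permutation p = 0.0958) and rho 0.49 (p = 0.356). Without the 2 farthest libraries r was 0.75 (permutation p = 0.0136), and as deviations from the 4 group means it was 0.85 (exact permutation p within groups = 0.0147). Adjusted over the 13347 genes tested outside the hormone and granin list, the p of *Fev* was 0.217, so it did not pass. No gene passed (0.0%), and 1021 genes (7.65%) had an unadjusted permutation p under 0.05. With 100000 resamples a lone gene at the smallest possible p would have had an adjusted p of 0.133, so a gene could pass only together with others at so small a p.

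The other 7 tested factors had a lower r than *Fev* over the 12 libraries, and none passed the test. *Neurod1* had an r of 0.56 (permutation p = 0.0587) and a rho of 0.56 (p = 0.0645), and *Pax6* an r of 0.54 (permutation p = 0.0714) and a rho of 0.58 (p = 0.0522). For *Neurod1* r was 0.17 within SM6 and 0.71 within Lgr5-GFP, for *Pax6* 0.38 and 0.78, and without the 2 farthest libraries 0.40 and 0.35. *Isl1* had an r of 0.47 (permutation p = 0.123) and a rho of 0.46 (p = 0.129), with r = 0.17 without the 2 farthest libraries. Without Lgr5-GFP old 2 the r of *Isl1* was 0.75 (permutation p = 0.00616, adjusted p = 0.49), and as deviations from the group means it was 0.76 (exact permutation p within groups = 0.0309, adjusted p = 0.757). *Insm1* (r = 0.25), *Nkx2-2* (0.20), *Neurog3* (0.11) and *Pax4* (-0.091) had a permutation p between 0.436 and 0.885, and each changed sign when some libraries were left out. The adjusted p of these 7 was between 0.66 and 0.988. For *Insm1* r was 0.82 within SM6 (exact permutation p = 0.0556) and 0.69 within Lgr5-GFP (exact permutation p = 0.107), yet -0.35 without the 2 farthest libraries.

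Genes most like the summed factors were looked for among the 9930 tested genes with a mean of at least 5 CPM. The 10 with the highest r over the 12 libraries were *Gcnt3* (0.90), *Gm37510* (0.89), *Gm38115* (0.86), *Cpe* (0.86), *Sgsm3* (0.86), *Rbms2* (0.85), *Rab18* (0.85), *Rbp4* (0.84), *Sct* (0.84) and *Ffar2* (0.83). *Cpe* encodes carboxypeptidase E, which trims prohormones, *Ffar2* a receptor for short-chain fatty acids, *Rbp4* a retinol carrier and *Gcnt3* a mucin glycosyltransferase. The 8 hormone genes in the ranking had a median r of 0.74 with 5 among the top 100, and the 6 ranked genes of the granin list had a median of 0.55 with 3 among the top 100. The median over all ranked genes was -0.01. Goblet cell markers had a median r of 0.49, with 1 among the top 100 (r = 0.74), Paneth cell markers 0.46 and ISC markers -0.13. Paneth and goblet RNA thus moved with the factor sum too, to a lesser median than the hormone genes but near that of the granin list. Their part in it was not tested.

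Factors upstream of and beside the list changed in few cases. *Atoh1*, the bHLH factor of all secretory cells, rose with age in SM6 from 38.2, 17.7 and 43.4 CPM to 79.5, 63.1 and 75.9 CPM (log2 fold change 1.15, SE 0.29, adjusted p = 0.0327), and was lower in Lgr5-GFP than in SM6 at 22 months (-1.41, SE 0.30, adjusted p = 0.023). It was the one gene called of the 9 of the secretory fate list in each of those comparisons. Among 7 tested genes of 10 other endocrine factors, *Sox4*, an SRY-box factor, fell with age in SM6 (-0.82, SE 0.21, adjusted p = 0.036). The call of *Atoh1* with age was lost without SM6 young 2 or any SM6 old library (adjusted p = 0.0593 to 0.228) and with library totals in place of TMM (0.0514), its call at 22 months without SM6 old 1, SM6 old 3, Lgr5-GFP old 1 or Lgr5-GFP old 3 (0.0552 to 0.164), and that of *Sox4* without any SM6 young library, SM6 old 1 or SM6 old 2 (0.0668 to 0.217).

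Depth and Paneth RNA moved with the factors in places. The deepest library, Lgr5-GFP young 1, had counts for 8 of the 9 factors and 65 factor counts, and the shallowest, Lgr5-GFP old 3, had counts for 3 and 3 factor counts. SM6 old 3, with the highest factor sum in CPM (37.5), and Lgr5-GFP young 1, with the second highest (20.5), were also the libraries with the most defensin RNA. Without these 2 libraries the r of the factor and hormone sums was 0.83, that of *Fev* was 0.83 (permutation p = 0.00305), and 0 factors were called in any comparison, where 4 factors were left to test and *Insm1* was not among them.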

How the data were processed

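The 12 libraries were 3′ RNA sequencing libraries of sorted ISCs, 1 mouse each, in 4 groups taken from the sample titles. The authors aligned reads to GRCm38 with STAR 2.4.2a and counted them per GENCODE gene with featureCounts, and the deposited values are raw counts with no scaling. The kit added molecular identifiers. Whether reads were collapsed by them is not stated, so intervals and floors cover counting error only. P-values of edgeR set a difference against the spread between mice of a group, with estimates of spread shared between genes. Permutation p-values over all libraries or within 1 isolation came from shuffles across groups, so differences between groups enter them. Those of deviations from group means came from shuffles within groups.

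Gene identifiers were matched to GENCODE vM21, and merged exon lengths were taken from it. Counts were scaled by TMM and tested with edgeR 4.0.16 (quasi-likelihood, 1 mean per group, all 12 libraries, two-sided, R 4.3.3), after a filter of more than 5 reads and at least 1 CPM in at least 1 library. The Benjamini-Hochberg method was applied over all 13368 genes, with 0.05 as the threshold of a call. Counting intervals are exact 95% intervals of the ratio of pooled group counts. Where a group was at 0, its floor was 3 counts over the group.

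Relations used log2(CPM + 1) and two-sided permutation tests with 100000 resamples, all 720 orders for 6 libraries, and 1296 within-group orders for deviations (SciPy 1.17.1). Their p-values were adjusted over all genes tested outside the hormone and granin list, in place of over the 8 factors alone. Sequences came from RefSeq promoters of GRCm38.p6, and E-boxes were searched on both strands.

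The factors, gene lists and tests were chosen with earlier results of these data known. Every factor was named. So were the 6 most abundant genes of the hormone and granin list (*Gip*, *Chgb*, *Sct*, *Chga*, *Ddc*, *Gcg*) and called genes of it, up to 4 called genes per comparison of the other endocrine and secretory lists, and the 10 genes most like the factor sum. Hormones were *Gcg*, *Gip*, *Cck*, *Sct*, *Sst*, *Nts*, *Pyy*, *Ghrl*, *Gast*, *Insl5*, *Tac1*, *Iapp* and *Ucn3*, 10 of 13 tested. Alternatives covered scaling, filters, tests (DESeq2 1.42.0, limma 3.58.1 voom), the samples in the fit, the replicate block and omission of single libraries. Omission of both defensin-rich libraries was added after seeing the data.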

Additional observations from a re-analysis of the deposited data

Results flagged for a closer look

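*Sct*, the secretin gene, was the gene named here whose age effect differed between isolations by a test of the difference itself. Its age effect in Lgr5-GFP minus that in SM6 was -2.0 on the log2 scale (SE 0.44, adjusted p = 0.0298, edgeR interaction), with 1.28 in SM6 and -0.72 in Lgr5-GFP. The difference was -1.44 (adjusted p = 0.223) without Lgr5-GFP young 1 and -1.17 (adjusted p = 0.295) without both defensin-rich libraries. It was also not called by a robust quasi-likelihood fit (adjusted p = 0.215), voom (0.11) or with library totals in place of TMM (0.055). For the same difference 6 of 6 Paneth, 4 of 6 enterocyte and 2 of 6 goblet markers were called lower, and their part in it was not tested. No factor of the 8 tested met an adjusted p of 0.05 for this difference. Single outlying libraries were not tested for in groups of 3.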

How the results depend on the processing

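The count of factors called was 0 under every alternative that gave a value. DESeq2 gave no adjusted p for any factor with age in either isolation or for the difference of the age effects, a fit of only the groups compared was made for 4 comparisons with 5 to 7 factors, and 5 factors were left without Lgr5-GFP young 1, 7 without SM6 old 1 and 4 without both defensin-rich libraries. Under edgeR's default expression filter 0 of the 9 factors were left to test, so it gave no value. Replicate numbers did not pair the mice, since deviations of same-numbered libraries correlated between -0.04 and 0.05, and a fit with the replicate block also called 0. Of named factors, *Fev* with age in SM6 (0.50) turned to -0.49 without SM6 old 3 (range over single omissions -0.49 to 0.94) and -0.48 without both defensin-rich libraries, and *Neurod1* with age in Lgr5-GFP (-1.23) turned to 0.61 without Lgr5-GFP young 1 (range -2.64 to 0.61) and 0.62 without both. *Neurod1* turned to -0.0007 with age in SM6 without SM6 old 2 (range -0.0007 to 1.40) and to 0.27 at 2 months without SM6 young 2 (range -2.30 to 0.27). *Isl1* with age in SM6 turned to -0.15 with library totals, -0.79 with voom and -2.29 without both defensin-rich libraries (range over single omissions -2.32 to 0.95, with -0.18, -0.22 and -2.32 without SM6 young 1, SM6 young 2 and SM6 old 3). With age in Lgr5-GFP it turned to -2.70 without Lgr5-GFP old 2 (range -2.70 to 4.71), and at 22 months to 0.19 with library totals, 0.08 with the replicate block and 2.33 without both (range -4.97 to 2.35, with 2.35, 0.53 and 0.41 without SM6 old 3, Lgr5-GFP old 1 and Lgr5-GFP old 3). *Insm1* with age in Lgr5-GFP turned to -0.36 with voom and -0.13 with the replicate block (range -1.57 to 0.56, with -0.07, -0.21 and -1.57 without Lgr5-GFP young 2, Lgr5-GFP young 3 and Lgr5-GFP old 2). Over single omissions *Insm1* with age in SM6 ran from 2.46 to 5.05, and at 22 months *Neurod1* ran from -3.75 to -1.70 and *Fev* from -3.32 to -1.58. Relations to the hormone and granin sum changed sign for 4 factors. *Neurog3* was at -0.23 within SM6, -0.29 within Lgr5-GFP, -0.53 as deviations from group means and -0.33 without SM6 old 1 (range over single omissions -0.33 to 0.2). *Pax4* was at 0.046 for the mean of log2 values, 0.025 without *Gip*, 0.13 within SM6, 0.79 within Lgr5-GFP, 0.43 as deviations, 0.00099 without Lgr5-GFP old 2 (range -0.2 to 0.00099) and 0.08 without both defensin-rich libraries. *Nkx2-2* was at -0.0032 without the 2 farthest libraries, -0.079 without SM6 old 3 (range -0.079 to 0.34) and -0.054 without both. *Insm1* was at -0.35, -0.099 and -0.081 in the same 3 settings (range over single omissions -0.099 to 0.42). The r of *Fev* stayed between 0.72 and 0.91, with an adjusted p between 0.148 and 0.984. The causes were not tested. A robust fit lost the calls of *Sct*, *Pyy* and *Sst* with age in SM6 (adjusted p = 0.0711, 0.119 and 0.331), DESeq2 those of *Pyy* and *Sst* (0.223 and 0.29), and voom that of *Sst* (0.266). At 22 months the robust fit also lost those of *Sst*, *Nts*, *Gcg* and *Chgb* (0.406, 0.11, 0.402 and 0.202) and at 2 months that of *Gip* (0.212). At 22 months voom called 3 of the 10 hormone genes and lost *Sst*, *Nts*, *Cck* and *Gcg* (0.413, 0.199, 0.238 and 0.318), and *Gcg* was also lost with DESeq2 (0.12) and edgeR's default filter (0.0532). Without both defensin-rich libraries *Sst* was not called with age in SM6 (0.203) or at 22 months (0.0537). Library totals of 970472 to 3815425 counts left most factors under 10 counts per library.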
